A study of Mus musculus with 20 samples.

Results

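Caveolins and cavins are the coat proteins of caveolae, and 5 of their genes, Cav1, Cav2, Cavin1, Cavin2 and Cavin3, were followed in mouse fibroblasts through a time course with AICAR. The members were all probe sets of the array that carry the symbol of 1 of these genes alone, Cavin1, Cavin2 and Cavin3 having formerly been named Ptrf, Sdpr and Prkcdbp. This gave 9 probe sets of the 45141 in the table, and 5 genes of the 17097 that could be named. The choice by symbol sets no threshold on a value, but the family was chosen by a reading of these data, with its signals over the 7 time groups known. The differences of these genes from 0 h are therefore given as a description, with standard errors and without p-values, and the statement that a gene passed the threshold supports nothing about the family.

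The cells were SV40-immortalized murine embryonic fibroblasts with an Ampkα1/α2 double knockout, so every group, the controls included, lacks the catalytic part of AMP-activated protein kinase. AICAR is a cell-permeable nucleoside that cells phosphorylate to an AMP mimic and that is commonly used to activate this kinase. Controls at 0 h received no agent (3 arrays), and the other groups received 1 mM AICAR for 1, 2, 4, 12 or 24 h (3 arrays each) or 8 h (2 arrays). The controls were all taken at 0 h, so time in AICAR and time in culture cannot be told apart, and no wild-type array was analysed here. The labels give neither the number of clones nor whether replicates were separate cultures, so standard errors and p-values reflect only how much these arrays varied, which could be technical.

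Caveolae are small flask-shaped pits of the plasma membrane, rich in cholesterol, that are abundant in fibroblasts, endothelial cells, adipocytes and muscle. Caveolin-1, from Cav1, is the integral membrane protein needed to form them outside striated muscle, and caveolin-2, from Cav2, assembles with it into hetero-oligomers. The cavins coat the pit from the cytosol: cavin-1 is required for caveolae, cavin-2 is a phosphatidylserine-binding protein that shapes the membrane, and cavin-3 is a protein kinase C delta-binding member of the coat. Caveolae flatten under stretch, take part in lipid handling and endocytosis, and hold signalling receptors.

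The promoters of Cavin2, Cav1 and Cav2 are shown because Cavin2 and Cav1 had the largest falls of the family, whereas Cav2, which lies next to Cav1 on chromosome 6 with 0 annotated genes between them, did not. Each is the 250 bases before the RefSeq transcription start on GRCm38.p6, and for Cav1 the more upstream of its 2 listed starts. Promoters of 4 of the 5 genes were matched by symbol. Capitals mark matches, on either strand, to the GC box (GGGCGG), the CCAAT box (CCAAT), the AP-1 motif (TGANTCA) and the TATA box (TATAAA). The same search also covered the TEAD motif (CATTCC) and the E-box (CACGTG), found in 12.6% and 6.02% of all windows, with no match in these 3. These motifs do not overlap each other in the windows shown.
Cavin2 promoter, chr1:51288876-51289125, plus strand: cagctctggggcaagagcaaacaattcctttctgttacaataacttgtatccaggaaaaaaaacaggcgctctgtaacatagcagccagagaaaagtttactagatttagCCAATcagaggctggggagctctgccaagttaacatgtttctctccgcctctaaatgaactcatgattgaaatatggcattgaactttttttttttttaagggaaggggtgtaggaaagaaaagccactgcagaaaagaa
Cav1 promoter, chr6:17306085-17306334, plus strand: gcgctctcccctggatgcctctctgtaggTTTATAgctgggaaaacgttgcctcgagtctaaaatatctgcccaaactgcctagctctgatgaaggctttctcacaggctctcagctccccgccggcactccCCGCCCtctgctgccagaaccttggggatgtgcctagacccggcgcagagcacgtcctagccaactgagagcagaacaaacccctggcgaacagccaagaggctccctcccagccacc
Cav2 promoter, chr6:17280935-17281184, plus strand: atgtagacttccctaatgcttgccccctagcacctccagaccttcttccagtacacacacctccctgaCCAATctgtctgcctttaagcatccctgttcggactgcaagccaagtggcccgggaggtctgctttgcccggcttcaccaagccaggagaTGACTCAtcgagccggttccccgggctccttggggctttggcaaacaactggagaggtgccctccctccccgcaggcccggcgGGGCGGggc
The Cavin2 window had a GC content of 40.4%, and those of Cav1 and Cav2 had 59.6% and 62.0%, against a median of 52.4% over 32851 promoter windows of this length. The Cavin2 window held a CCAAT box, as did the Cav2 window and 33.8% of all windows. The Cav1 and Cav2 windows each held a GC box, found in 32.7% of all windows, and the Cavin2 window held none. The AP-1 motif of the Cav2 window occurs in 6.75% of windows and the TATA sequence of the Cav1 window, which lies on the minus strand, in 12.4%. The window of the other listed Cav1 start, not shown, held no match to any motif searched, and which start these cells use is not known here. A match is a string of letters and not a measured binding site.

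The median log2 signal of an array was 5.16 to 5.32, and precision is limited by the small number of arrays. The interquartile range of an array followed the replicate number: it was 2.79 to 2.91 in the arrays of replicate 3. It was 2.95 to 3.24 in the other arrays, except AICAR 4h replicate 2 (2.77). A signal of 5.08, the 95th percentile among probe sets for non-specific binding, is used as the background level. Of 11 fibroblast markers on the array, 8 had a mean above it, among them Col1a1, Pdgfra and Vim, whereas Col1a2, Thy1 and Lum did not. Of the 8 endothelial markers 2 were above it (Kdr and Plvap), of the 4 adipocyte markers 1 (Pparg) and of the 6 macrophage markers 2 (Csf1r and Cd14), and Cd68 was above it from 8 h on. Of the 7 skeletal muscle markers 6 were above it (Acta1, Myod1, Myog, Des, Ckm and Myh3), and Cav3 was not. Of the 5 epithelial markers 3 were above it (Krt18, Krt19 and Epcam) and of the 3 smooth muscle markers 2 (Cnn1 and Acta2). A signal above this level therefore does not by itself mark a cell type. The probe sets of the deleted genes Prkaa1 and Prkaa2 had control means of 8.19 and 5.63, and since the position of the probes relative to the deletion is not known here, they check nothing.

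In the fit over 12944 genes, none of the 5 members passed the threshold at 1 h or 2 h, where 0.479% and 1.47% of all genes did; 1 member at each of these times (Cav1 and Cavin3) had an unadjusted p under 0.05. The threshold is an adjusted p under 0.05 in limma with Benjamini-Hochberg adjustment. Of the 5 members, 1 passed at 4 h (Cavin3; 12.1% of all genes), 1 at 8 h (Cavin2; 10.3%), 1 at 12 h (Cavin2; 23.7%) and 2 at 24 h (Cavin2 and Cav1; 40.4%). All of these were lower than at 0 h, as were 6.9%, 2.84%, 8.88% and 14.6% of all genes at those 4 times. In the moderated F test over the 6 times, 4 of the 5 passed, Cavin1 being the exception, against 48.4% of all genes. The 6 comparisons share the same 3 control arrays.

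**Figure D1:**
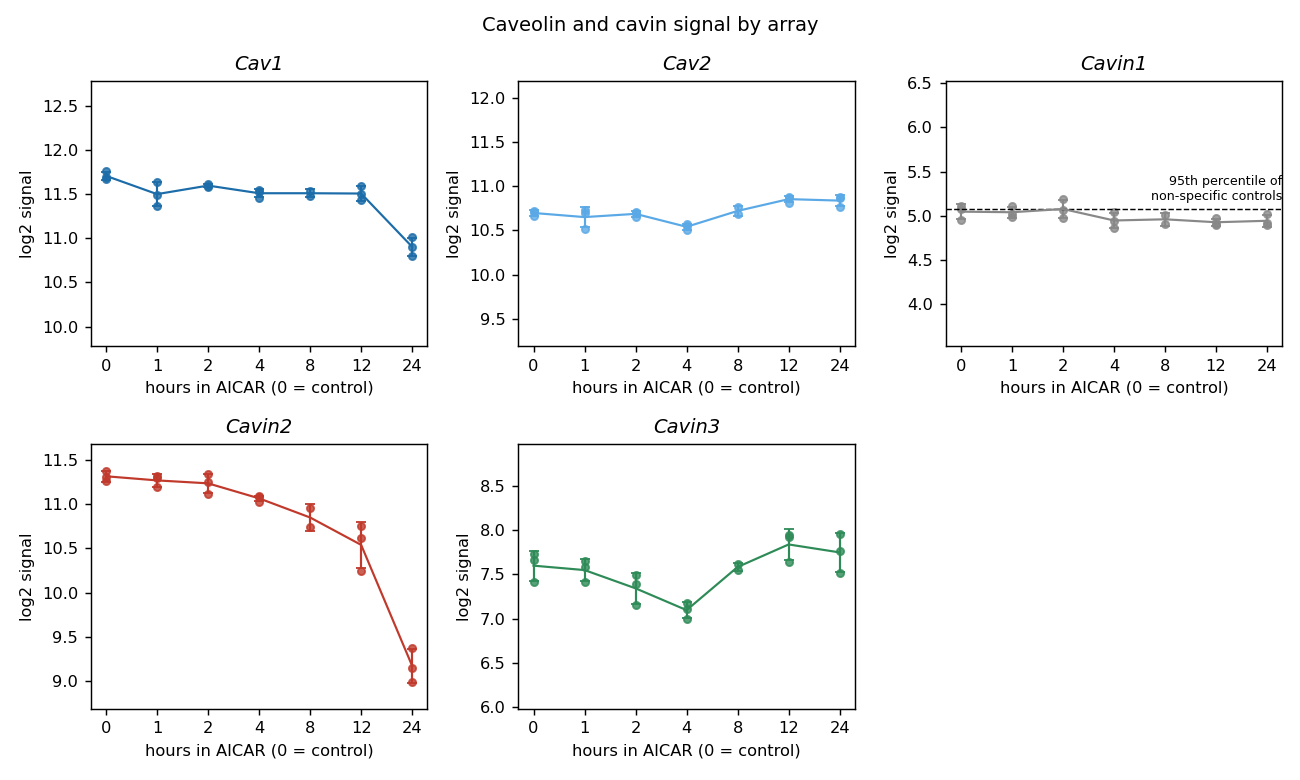
Log2 signal (y axis, each panel spanning the same 3-unit range) against hours in AICAR (x axis, evenly spaced) for the probe set that stands for each gene. Points are arrays, lines join group means and bars are SD (n = 3, or 2 at 8 h). Cavin2 and Cav1 are lowest at 24 h, Cavin3 is lowest at 4 h, and Cavin1 lies around the background level of 5.08 (dashed).

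Cavin2, the membrane-shaping cavin, changed most. Its probe set 1416778_PM_at, the brightest of 3, gave a log2 signal of 11.38, 11.31 and 11.26 in the controls. After 1 h it was 11.32, 11.30 and 11.19, after 2 h it was 11.12, 11.34 and 11.25, and after 4 h it was 11.03, 11.09 and 11.08. The 1 h and 2 h arrays overlapped the controls, and the 4 h arrays lay just below them. After 8 h the signal was 10.74 and 10.96, after 12 h it was 10.25, 10.62 and 10.75, and after 24 h it was 9.37, 9.15 and 8.99. These 3 groups lay wholly below the controls, and the 24 h arrays lay below every other array. The share of all genes whose arrays separate from the controls at a single time is not given, here or for the other members.

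The group means of this probe set stood in order of time. The mean was 11.32 ± 0.06 (SD, n = 3) in the controls, 11.27 ± 0.07 after 1 h, 11.24 ± 0.11 after 2 h and 11.07 ± 0.03 after 4 h. It was 10.85 ± 0.15 (n = 2) after 8 h, 10.54 ± 0.26 after 12 h and 9.17 ± 0.19 after 24 h. Neighbours in that order overlapped between 0 and 1 h, between 1 and 2 h and between 8 and 12 h, and were separated between 2 and 4 h, 4 and 8 h, and 12 and 24 h. The difference from 0 h was -0.25 ± 0.11 (SE) at 4 h and did not pass the threshold. Cavin2 fell by 0.47 ± 0.13 at 8 h, by 0.78 ± 0.11 at 12 h and by 2.15 ± 0.11 at 24 h on the log2 scale. The last is a 4.43-fold lower signal, with a 95% interval of the log2 difference from -2.38 to -1.91. Cavin2 had the 6th largest fall of the 12944 genes at 24 h, the 115th at 12 h and the 204th at 8 h. The 8 h call, which rests on 2 arrays, was lost without AICAR 8h replicate 1 (-0.36), without control 0h replicate 1 (-0.43) or replicate 2 (-0.47), and with the mean of the 3 probe sets (-0.66). In a culture measured in bulk, fewer cells that express a gene and less of its RNA per cell cannot be told apart.

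The other probe sets of Cavin2 also had their lowest values at 24 h, but their earlier means did not stand in order of time. The probe set 1416779_PM_at gave 9.96, 9.94 and 10.23 in the controls, 8.89, 9.44 and 8.85 at 12 h, and 7.89, 7.56 and 7.03 at 24 h. Neither time overlapped the controls. Its mean was 10.04 in the controls, 9.95 after 1 h, 10.07 after 2 h, 9.68 after 4 h and 9.49 after 8 h, and the arrays of neighbours in the order of the levels overlapped except at 24 h. It fell by 0.98 ± 0.23 (SE) at 12 h and by 2.55 ± 0.23 at 24 h, a 5.85-fold lower signal. The third, 1443832_PM_s_at, whose name marks probes that can match several transcripts, gave 9.26, 9.73 and 10.08 in the controls and 7.34, 6.34 and 5.64 at 24 h. Its mean was 9.69 in the controls, 9.05 after 1 h, 9.46 after 2 h, 8.83 after 4 h, 8.71 after 8 h and 8.54 after 12 h. It fell by 3.26 ± 0.54 at 24 h, 9.55-fold, and its difference of -1.15 ± 0.54 at 12 h did not pass. In the fit of 28703 probe sets, which serves for these further probe sets, all 3 probe sets of Cavin2 passed at 24 h, where 33.2% of all probe sets did, 2 passed at 12 h (17.7%) and 1 at 8 h (7%).

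The 3 probe sets differed in their spread. The range within a group reached 1.77 for 1443832_PM_s_at (at 4 h) and 0.86 for 1416779_PM_at (at 24 h), but 0.50 for 1416778_PM_at (at 12 h). At 4 h, 1443832_PM_s_at read 9.88, 8.11 and 8.51 where 1416778_PM_at read 11.03, 11.09 and 11.08. The gap between the 3' and 5' actin controls of the array, which widens as RNA degrades, was widest in AICAR 4h replicate 2 (0.689) and next in replicate 2 of AICAR 8h (0.646). In 4 of the 7 groups the array lowest in 1443832_PM_s_at was the one with the highest actin value. In those same 2 arrays 1416778_PM_at was the highest of its group (11.09 and 10.96). At 24 h the actin value lay between 0.503 and 0.557, against 0.383 to 0.458 at 0 h. The same gap for the Gapdh controls of the array was not wider at 24 h (0.125 to 0.154) than at 0 h (0.077 to 0.228). The part of RNA degradation in the fall of Cavin2 was not tested.

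**Figure D2:**
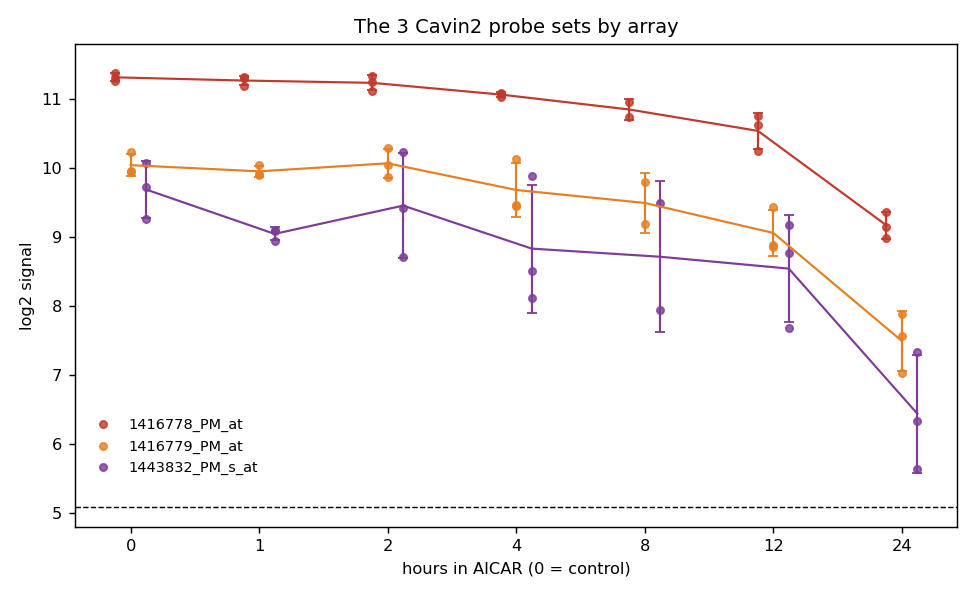
Log2 signal (y axis) of the 3 Cavin2 probe sets against hours in AICAR (x axis, evenly spaced), with points for arrays, lines through group means, SD bars and the background level of 5.08 dashed. Each probe set is lowest at 24 h, and 1443832_PM_s_at has the widest spread between replicates.

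Cav1, the structural caveolin, was lower at 24 h as well. It has a single probe set here, 1449145_PM_a_at. Its signal was 11.76, 11.69 and 11.67 in the controls, 11.64, 11.49 and 11.37 at 1 h, 11.58, 11.62 and 11.59 at 2 h, and 11.55, 11.52 and 11.46 at 4 h. It was 11.48 and 11.54 at 8 h, 11.43, 11.50 and 11.59 at 12 h, and 11.01, 10.80 and 10.90 at 24 h. All 17 AICAR arrays lay below the lowest control array, a pattern that 113 of the 12944 genes (0.873%) had, but the gap was small before 24 h: the highest AICAR array read 11.64 and the lowest control 11.67.

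Cav1 fell by 0.80 ± 0.07 (SE) at 24 h, a 1.74-fold lower signal, with a 95% interval of the log2 difference from -0.96 to -0.65. Its means of 4, 8 and 12 h were all 11.51, with 11.50 after 1 h and 11.60 after 2 h, against 11.71 ± 0.05 (SD, n = 3) at 0 h. In the order of the levels, 4, 12, 8 and 1 h were neighbours whose arrays overlapped, and 0 h, 2 h and 24 h were each separated from their neighbour. Its differences from the controls before 24 h did not pass the threshold. They ran from -0.11 ± 0.07 (2 h) to -0.21 ± 0.07 (1 h), with -0.19 ± 0.07 at 4 h and -0.20 at both 8 h and 12 h (SE 0.08 and 0.07). Those at 4 h and 12 h passed in some alternatives, such as array weights (-0.24 and -0.23). The mean at 24 h was 0.59 below the lowest of the earlier means.

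Cav2, the partner of Cav1 in the caveolin oligomer and its neighbour on the chromosome, was not called at any time. The signal of 1417327_PM_at was 10.72, 10.71 and 10.66 in the controls, 10.55, 10.57 and 10.50 at 4 h, 10.81, 10.87 and 10.88 at 12 h, and 10.87, 10.88 and 10.76 at 24 h. The 4 h arrays lay below the controls and the 12 h and 24 h arrays above them. The share of all genes so separated is not given. The differences from 0 h were -0.16 ± 0.06 (SE) at 4 h, 0.16 ± 0.06 at 12 h and 0.14 ± 0.06 at 24 h, and they passed in some alternatives, among them quantile normalization (-0.16, 0.19 and 0.19). At 24 h the 95% interval for Cav2, not adjusted for the number of genes tested, ran from 0.01 to 0.28. Whether Cav2 differs from Cav1 was not tested. At 1, 2 and 8 h the differences of Cav2 from 0 h were -0.04, -0.01 and 0.03, and some of those arrays lay within the range of the controls. The highest and lowest group means, at 12 h and 4 h, differed by 0.32, and each neighbour in the order of the levels overlapped the next. The dimmer probe set of Cav2, 1425955_PM_at, ranged from 5.88 to 6.51 over the 20 arrays, and its group means lay between 6.04 and 6.22 with all neighbours overlapping. It did not share the time course of the brighter one. Its mean was highest at 4 h and lowest at 24 h, with differences from 0 h of 0.12 ± 0.12 (SE) and -0.06 ± 0.12. With the mean of both probe sets Cav2 differed from 0 h by -0.02 at 4 h. Over the alternatives its difference at 24 h ran from 0.04 to 0.19.

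Cavin3, the protein kinase C delta-binding cavin, had its lowest level at 4 h. Its single probe set, 1423771_PM_at, read 7.73, 7.66 and 7.41 in the controls, 7.59, 7.65 and 7.41 at 1 h, 7.39, 7.49 and 7.15 at 2 h, and 7.18, 7.002 and 7.11 at 4 h. It then read 7.62 and 7.55 at 8 h, 7.93, 7.95 and 7.64 at 12 h, and 7.96, 7.77 and 7.52 at 24 h. The 4 h arrays alone did not overlap the controls. Cavin3 fell by 0.51 ± 0.12 (SE) at 4 h, a 1.42-fold lower signal, and did not pass without control 0h replicate 1 (-0.44). Its difference was -0.26 ± 0.12 at 2 h, -0.02 ± 0.13 after 8 h, 0.24 ± 0.12 after 12 h and 0.15 ± 0.12 after 24 h, none of which passed. The difference at 2 h passed with quantile normalization (-0.26) and with the interquartile range of the arrays as a covariate (-0.24).

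With the replicate number as a block, 4 members passed at 12 h in place of 1: Cavin2, Cav1 (-0.20), Cav2 (0.16) and Cavin3 (0.24). At 24 h the block left 2 members past the threshold. Every same-numbered pair of 0 h with 12 h and with 24 h correlated above 0.1 in its deviations from the group means; 2 of 3 pairs did so at 1 h and at 2 h, and 0 at 4 h and 8 h.

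**Figure D3:**
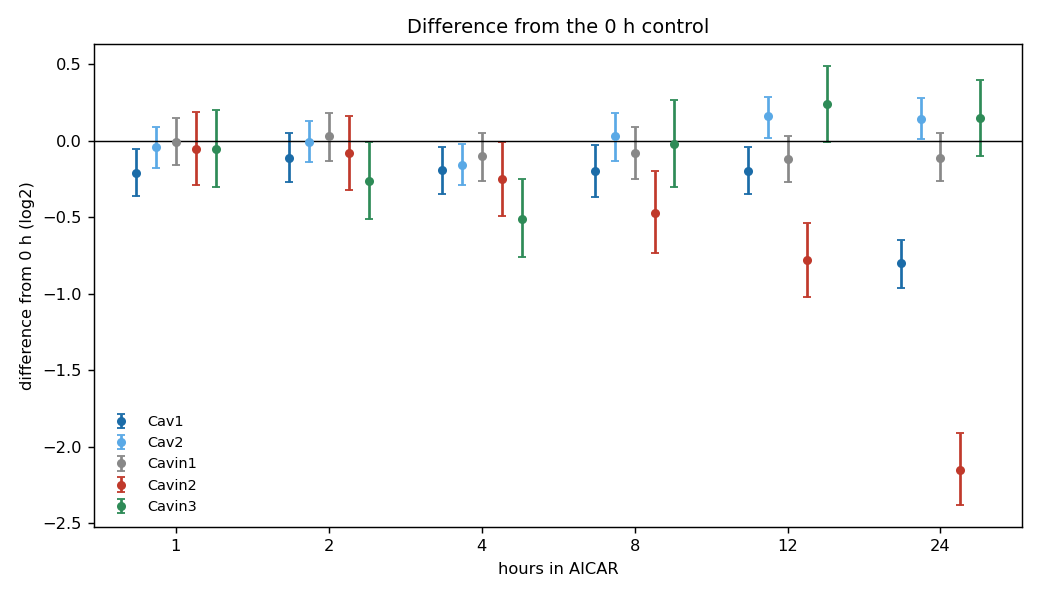
Difference of the mean log2 signal from 0 h (y axis) at each time in AICAR (x axis, evenly spaced) for the 5 genes, with 95% intervals from the fit. At 24 h the points of Cavin2 (-2.15) and Cav1 (-0.80) lie below those of Cav2 (0.14) and Cavin3 (0.15). The point of Cavin1 (-0.11) comes from signals around the background level and does not show whether that gene changed. Differences between members were not tested.

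Cavin1, the cavin required for caveolae, could not be followed with these probe sets. The probe set 1453891_PM_at ranged from 4.86 to 5.19 over the 20 arrays, with 3 arrays above the background level, and 1421431_PM_at ranged from 4.09 to 4.68, with 0 above it. The first passed the filter on low values and differed from 0 h by -0.12 at 12 h and -0.11 at 24 h, which did not pass. The second did not pass the filter. Signals at this level give no order between groups and do not show whether the transcript was present.

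The 4 genes with a signal above background did not share a time course. Over the 7 group means the Pearson correlation was 0.95 between Cav1 and Cavin2 and 0.92 between Cav2 and Cavin3, while that between Cav1 and Cav2 was -0.48 and that between Cavin2 and Cavin3 was -0.51. These correlations describe 7 means from the same 20 arrays, with 1 probe set for each gene, which for Cav2 was the brighter one. Cav1 and Cavin2 were both lowest at 24 h (10.90 and 9.17). From 4 h to 12 h the mean of Cav1 stayed at 11.51, while that of Cavin2 went from 11.07 to 10.54. The genes whose group means were most like those of Cavin2, among 4116 genes that varied by at least 0.5, were Nkain1, Tfrc, Bok, Cth (r = 0.998 each) and Ppp1r14b (0.997). Tfrc encodes the transferrin receptor, a cargo of clathrin-coated pits, and was 1.05 lower at 24 h than at 0 h, Bok encodes a BCL2 family protein (-0.93), and Cth is a transsulfuration enzyme (-1.53). Those most like Cav1 were the ephrin gene Efna5 and the taurine transporter gene Slc6a6 (0.990 each), the mitochondrial folate enzyme gene Mthfd1l (0.989), the death receptor gene Tnfrsf21 and the snoRNP core gene Nop58 (0.988 each). Their differences at 24 h were -1.12, -1.74, -0.67, -1.40 and -1.20.

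Those most like Cav2 were the small heat shock protein gene Cryab (0.988), Mpv17 (0.986), the BBSome subunit gene Ttc8 (0.983), Coa8 and Carmil1 (0.981 each). Those most like Cavin3 were the DNA repair gene Alkbh2 and the tendon transcription factor gene Scx (0.978 each), Mtss1 (0.977), Tmem179b (0.974) and the sulfiredoxin gene Srxn1 (0.971). At 4 h Alkbh2 stood at -0.93 and Srxn1 at -0.65 from 0 h, against -0.51 for Cavin3. No list is given for Cavin1, whose signal lay at the background level.

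Some markers of other cell types also moved over the time course. Of 3 smooth muscle markers on the array, Acta2, the smooth muscle actin gene that cultured fibroblasts also express, fell by 0.30 at 8 h, by 0.71 at 12 h and by 1.22 ± 0.08 (SE) at 24 h (limma adjusted p = 1.02e-09). Cnn1, a calponin gene, was at -0.36 at 4 h, which did not pass, and fell by 0.37 at 12 h and by 0.32 ± 0.12 at 24 h (adjusted p = 0.0329), while Myh11 was at 4.46 in the controls, below the background level. The mean log2 signal of the 3 lay between 7.46 and 7.58 in the controls and between 6.96 and 7.01 at 24 h. Over all genes 14.6% fell and 25.8% rose at 24 h, and the counts of markers that follow stand beside these shares. Of the 9 fibroblast markers tested 3 fell at 24 h (Pdgfrb, Thy1 and Fn1) and 0 rose. The mean of the fibroblast list was 7.63 to 7.68 in the controls and 7.52 to 7.59 at 24 h. Of the 4 endothelial markers tested 1 fell, the VEGF receptor gene Kdr (-0.27), and 0 rose, and the mean of that list overlapped (4.65 to 4.74 in the controls and 4.62 to 4.71 at 24 h). Of the 4 macrophage markers tested 1 rose at 24 h and 0 fell: Cd68, a lysosomal membrane glycoprotein gene, went from 4.77 in the controls, below the background level, to 5.38 at 12 h (adjusted p = 0.00128) and 5.85 at 24 h (a rise of 1.08 ± 0.12, adjusted p = 1.26e-06). Csf1r fell by 0.25 at 12 h (adjusted p = 0.0498), where 8.88% of all genes fell, and its -0.21 at 24 h did not pass. Cd14 rose by 0.40 at 8 h (adjusted p = 0.0244), where 10.3% of all genes passed, and stood at 0.02 at 24 h. Ptprc and Lyz2 were at 4.05 and 3.86 in the controls and at 4.15 and 3.93 at 24 h, below the background level. The mean of the macrophage list was 4.92 to 4.96 in the controls and 5.02 to 5.20 at 24 h. Of the 6 skeletal muscle markers tested 1 fell at 24 h, Acta1 (-0.45), and 0 rose. Of the 3 epithelial markers tested 1 fell at 24 h, Krt19 (-0.28), and 0 rose. Krt19 had also fallen by 0.28 at 4 h but had risen by 0.32 at 12 h. The part of these markers in the falls of Cavin2 and Cav1 was not tested.

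In a list of genes linked to caveolae or membrane rafts, more rose than fell at 12 h and 24 h, as over all genes. All 22 genes of this caveola accessory list were on the array and 16 were tested. At 24 h 5 rose and 1 fell, where 25.8% of all genes rose and 14.6% fell, with a median of 0.11 against 0.01 over all genes. At 12 h 6 rose, where 14.8% of all genes did, and 0 fell, where 8.88% did (median 0.07 against 0.00). At 8 h 4 rose and 0 fell, where 10.3% of all genes passed and 2.84% fell. At 4 h 1 rose and 0 fell, where 12.1% of all genes passed and 6.9% fell. At 1 h and 2 h 0 passed, with limma or at an unadjusted p under 0.05. Flot1, which encodes the raft protein flotillin-1, rose by 0.75 ± 0.08 (SE) at 12 h (limma adjusted p = 8.27e-06) and by 0.96 ± 0.08 at 24 h (adjusted p = 6.52e-08), from a control signal of 8.35 ± 0.17 (SD, n = 3). Flot2, its partner, rose by 0.36 ± 0.11 at 24 h (adjusted p = 0.0119), but not past the threshold without control 0h replicate 3 (0.30).

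Insr, the insulin receptor gene, whose protein can reside in caveolae, rose by 0.63 ± 0.13 at 12 h (adjusted p = 0.00167) and by 1.07 ± 0.13 at 24 h (adjusted p = 2.91e-06); with the mean of its probe sets it was 0.21 and 0.39 above 0 h. Ehd2, the ATPase gene of the caveolar neck, rose by 0.42 ± 0.12 at 24 h (adjusted p = 0.00961). Its call was lost without control 0h replicate 3 (0.26) and with the mean of its 3 probe sets (0.08). Its relatives Ehd1 and Ehd3 rose by 0.30 ± 0.07 (adjusted p = 0.00415) and 0.33 ± 0.09 (adjusted p = 0.0134) at 12 h, and at 24 h differed by 0.00 and 0.17, which did not pass. With its probe sets averaged Ehd1 did not pass (0.17), nor did Ehd3 without control 0h replicate 3 (0.28), without AICAR 12h replicate 1 (0.23) or in a fit of the 0 h and 12 h groups alone. Without control 0h replicate 3, 3 accessory genes passed at 12 h and 2 at 24 h. Pacsin2, which encodes a membrane-bending protein of caveolae, rose by 0.22 at 12 h and stood at 0.14 at 24 h, not past the threshold. The 1 gene that fell at 24 h, Nos3 (-0.19), named after its value was seen, had signals below the background level in both groups. The muscle members of the families, Cav3 and Cavin4, were at 4.72 and 4.76 in the controls, below the background level.

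**Figure D4:**
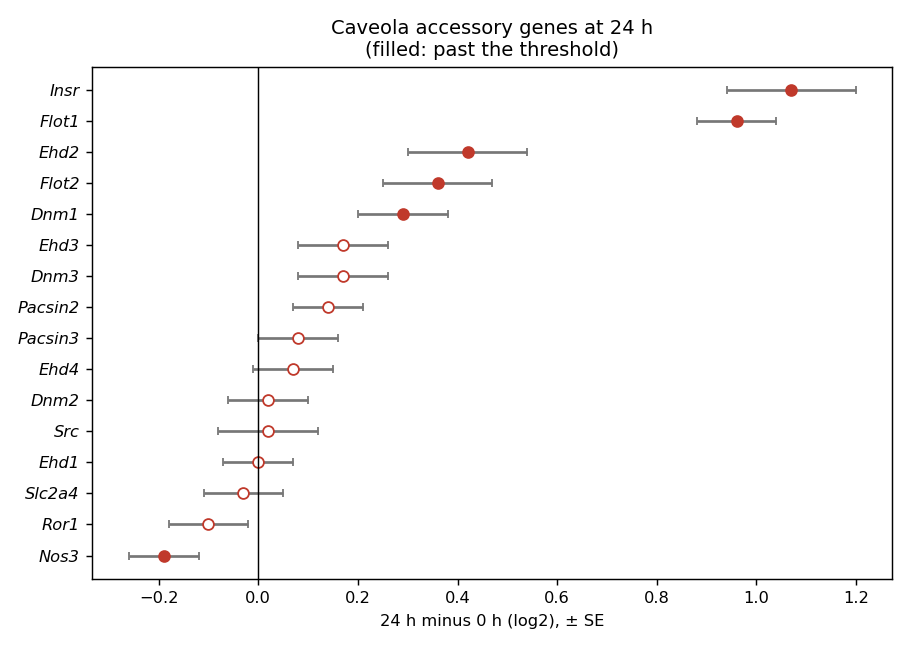
Difference between 24 h and 0 h on the log2 scale (x axis) for the 16 caveola accessory genes tested, one to a line, with SE bars. Filled points passed the threshold. Insr (1.07) and Flot1 (0.96) are farthest to the right, and Nos3 (-0.19) is the only filled point below 0.

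Genes of the clathrin coat, the other main endocytic coat, were called in both directions. Of 21 genes tested 7 rose and 3 fell at 24 h, where 25.8% of all genes rose and 14.6% fell, with a median of 0.09 against 0.01 over all genes, and at 1 h and 2 h 0 passed in limma (1 and 2 at an unadjusted p under 0.05). Dab2, a cargo adaptor, fell by 1.00 ± 0.08 (SE; limma adjusted p = 1.71e-08). Synj1, the uncoating phosphatase gene, rose by 0.85 ± 0.10 (adjusted p = 1.66e-06), and the scaffold genes Itsn2 and Eps15 rose by 0.83 ± 0.12 (adjusted p = 2.14e-05) and 0.52 ± 0.06 (adjusted p = 2.95e-06). With the mean of all probe sets Synj1 did not pass (0.32), Itsn2 was 0.44 above 0 h and Eps15 0.84. Whether the caveolar and clathrin genes differ from each other was not tested.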

How the data were processed

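The authors deposited 1 table of log2 signals, 45141 probe sets by 20 arrays (Affymetrix MG-430 PM strip, per the labels). The log2 scale is read from the values, whose highest is 13.5; the labels used here do not name the background correction, summary or normalization. The 104 array controls were left out of tests. Symbols (28898 probe sets with 1, 551 with several, 15692 unlisted or without one) were updated through gene identifiers for 28689. The probe set with the highest mean stood for each gene, and genes whose highest group mean did not exceed 4.81, the 40th percentile of the table, were not tested, leaving 12944. A fit over all 28703 probe sets passing the same filter served for further probe sets.

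Each time was compared with 0 h by limma 3.58.1 (R 4.3.3; lmFit, eBayes) in a single fit over 20 arrays with 13 residual degrees of freedom, two-sided, with Benjamini-Hochberg adjustment over all genes and a threshold of 0.05. The fit was tested on simulated data. Members and lists were chosen with earlier results of these data known. Named genes were the members, the 4 list genes with the largest t at 24 h and at the time with most calls, and the 5 genes most correlated with each member (Riken and Gm loci skipped); others are named as exceptions or examples. Pairing was checked by correlating deviations from group means between same-numbered arrays of 0 h and each time. It lay above 0.1 in 10 of 17 pairs, including all those at 12 h and 24 h, and ranged from -0.29 to 0.64. Alternatives were quantile normalization, median centring, other filters and probe set rules, variance models, array weights, the replicate block, a stricter threshold, the compared groups alone, an interquartile range covariate and leaving out each array. Figures used Python 3.11.15 and matplotlib 3.10.9.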

Additional observations from a re-analysis of the deposited data

How the results depend on the processing

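Cavin2 and Cav1 were lower and past the threshold at 24 h in every alternative run, and with quantile normalization or array weights a 3rd member, Cav2, passed there too. In the F test 4 members passed in each alternative except the mean of all probe sets (3), and at 1 h 0 passed in any. At 2 h 1 member passed with quantile normalization and with the interquartile range covariate, in place of 0. At 4 h, in place of 1, 3 passed with quantile normalization and 4 with array weights. At 8 h, in place of 1, 0 passed with the mean of all probe sets and at the threshold of 0.01. At 12 h, in place of 1, 2 passed with the filter at the 60th percentile and with the mean of all probe sets, 3 with quantile normalization, trended and robust variance or the interquartile range covariate, and 4 with array weights or the replicate block. The cause was not tested, except that a stricter threshold and fewer genes tested change counts by construction. The replicate block was run for the counts of the family at each time and in the F test, of accessory genes at 12 h and 24 h, and of clathrin coat and sterol genes at 24 h, and changed no other of these.

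Leaving out each array gave 0 at 1 h and at 2 h, 0 to 1 at 4 h and at 8 h, 1 to 2 at 12 h, 2 at 24 h and 4 in the F test for the family. It gave 3 to 6 accessory genes at 12 h, 2 to 6 at 24 h, 8 to 10 clathrin coat genes and 8 to 9 sterol genes. At the threshold of 0.01, 3 accessory genes passed at 12 h and 3 at 24 h, in place of 6, and with the compared groups alone 3 passed at 12 h. Of 553 differences of members under alternatives, 523 kept their side of the threshold and their direction where called, 24 gained a call, 6 lost one and 0 reversed.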

Other observations

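Genes of sterol supply and export, which set the cholesterol that caveolae hold, changed in both directions at 24 h. Of 11 tested, 6 rose and 3 fell, where 25.8% of all genes rose and 14.6% fell (40.4% passed). The median was 0.25 against 0.01 over all genes. Sqle, the squalene epoxidase gene of cholesterol synthesis, fell by 0.64 ± 0.08 (SE; limma adjusted p = 3.5e-06), Idi1, an isoprenoid isomerase gene, by 0.55 ± 0.07 (adjusted p = 1.06e-05), and Insig1, which retains the sterol sensor in the endoplasmic reticulum, by 0.92 ± 0.12 (adjusted p = 4.65e-06). Abcg1, a cholesterol exporter gene, rose by 1.07 ± 0.16 (adjusted p = 2.4e-05; 0.58 with the mean of its probe sets). Fdps, another gene of cholesterol synthesis, went the other way from Sqle and Idi1. It rose by 0.44 ± 0.09 at 8 h, by 0.53 ± 0.08 at 12 h and by 0.31 ± 0.08 at 24 h (limma adjusted p = 0.00492). The synthesis genes of the list therefore did not share a direction. At 12 h 3 rose and 1 fell, where 14.8% of all genes rose and 8.88% fell. At 8 h 2 rose and 1 fell, where 10.3% of all genes passed and 2.84% fell. At 1 h 1 fell, where 0.479% of all genes passed in either direction.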
